A study of Rattus norvegicus with 20 samples.

Results

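The genes described here are those that make, degrade and relay cyclic AMP (cAMP), and they were chosen by symbol alone. Of 59 adenylyl cyclase (*Adcy*), phosphodiesterase (*Pde*), protein kinase A (*Prkac* and *Prkar*) and A-kinase anchoring protein (*Akap*) symbols in the count table, 53 were covered by 5 or more reads in 10 or more of the 20 rats, out of 16605 genes in all that met this filter. They comprise 10 adenylyl cyclases, 22 phosphodiesterases, 6 PKA subunits and 15 anchoring proteins. The other 6, *Akap4*, *Akap14*, *Pde6a*, *Pde6b*, *Pde6g* and *Pde6h*, had at most 19 reads in any rat and were not tested. The rats were male Sprague-Dawley, aged 6 to 8 weeks at the start according to the sample labels. Groups of 10 rats received intraperitoneal lysergic acid diethylamide (LSD) at 0.16 mg/kg or sterile saline on alternate days for 90 days, and the medial prefrontal cortex (mPFC) of 1 hemisphere was taken after 3 weeks without injections according to the labels. The written methods give a longer interval and an older starting age, which was not resolved here. The rats were housed individually before the treatment began, and each gave 1 poly(A) library (n = 10 per group), so the comparison asks what remains of chronic LSD after it has stopped.

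Cyclic AMP is made from ATP by adenylyl cyclases, most of which sit in the plasma membrane and are switched on by Gs and off by Gi proteins. It is broken down by phosphodiesterases, some of which prefer cAMP, some cGMP, and some take both. In cells cAMP mainly acts through protein kinase A (PKA), in which a dimer of regulatory subunits holds catalytic subunits inactive until cAMP binds, and A-kinase anchoring proteins (AKAPs) tether PKA beside its substrates, often together with a phosphodiesterase. In the prefrontal cortex this pathway is known for setting ion channel opening and CREB-dependent transcription.

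Libraries held 16346629 to 25552681 gene reads after LSD and 11098076 to 24201351 after saline, and levels are counts relative to the TMM-scaled library size (normalised RPM). All 10 excitatory neuron markers had a median above 1 normalised RPM, as the labelled tissue requires. So had all 10 astrocyte, all 10 oligodendrocyte and all 10 microglial markers and 9 of 10 striatal ones, so this does not tell one brain region from another. Striatal projection neuron markers stood out in 4 libraries, LSD rat 9 and saline rats 2, 8 and 9, whose summed level over the 10 markers was at least 474 normalised RPM against at most 348 in the other rats. The same 4 rats had the highest summed levels of 10 oligodendrocyte markers, at least 6232 against at most 5848. Over all rats the striatal sum was 213 to 474 with LSD (median 255) and 249 to 676 with saline (median 315). Of the 9 striatal markers that met the filter, all had a negative log2 fold change and an unadjusted p under 0.05, and *Gpr6* alone passed the threshold after adjustment. These 4 rats were therefore also left out together, an alternative chosen after the data were seen. It does not remove the group difference in these markers. Among the remaining rats the sum was 213 to 298 with LSD and 249 to 348 with saline. In that fit 2 of the 9 striatal markers were lower. The counts that follow are from the fit of all rats. Of the other marker lists, 1 of 10 excitatory neuron and 1 of 10 astrocyte markers were higher. In turn, 1 of 10 oligodendrocyte, 2 of 6 precursor and 1 of 10 microglial markers were lower, and 2 of 9 interneuron markers were higher and 2 lower. Of all genes tested 6.48% were higher and 8.54% lower, so 1 called marker of 10 is near the share over all genes. By edgeR in all rats, 0 of 8 endothelial and 0 of 4 choroid plexus markers were called (2 and 0 with an unadjusted p under 0.05, and 1 and 0 by DESeq2). All 10 oligodendrocyte markers had a negative log2 fold change (median -0.36), 4 of them with an unadjusted p under 0.05, and their sum was 2451 to 6232 with LSD (median 4211) and 2483 to 8090 with saline (median 5182). In bulk tissue, fewer cells of a type and less RNA per cell cannot be told apart.

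Of the 53 cAMP genes, 7 rose and 5 fell after LSD (edgeR quasi-likelihood test, Benjamini-Hochberg adjusted p under 0.05 over all 16605 genes), that is 22.6% of them, against 15.0% of all genes tested. By direction, 13.2% rose against 6.48% of all genes, and 9.43% fell against 8.54%. Those that rose were the anchoring proteins *Akap9*, *Akap6* and *Akap11*, the phosphodiesterases *Pde4d* and *Pde1a*, the phosphodiesterase 4D interactor *Pde4dip*, and the PKA catalytic subunit *Prkacb*. Those that fell were the cyclase *Adcy5*, *Pde1b*, *Pde6d*, the catalytic subunit *Prkaca* and the regulatory subunit *Prkar1b*. The median log2 fold change of the 53 was 0.12, beside 0.00 for all genes, and 34 were positive and 19 negative. Scaling by total counts instead of TMM gave 11 genes higher and 1 lower.

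**Figure D1:**
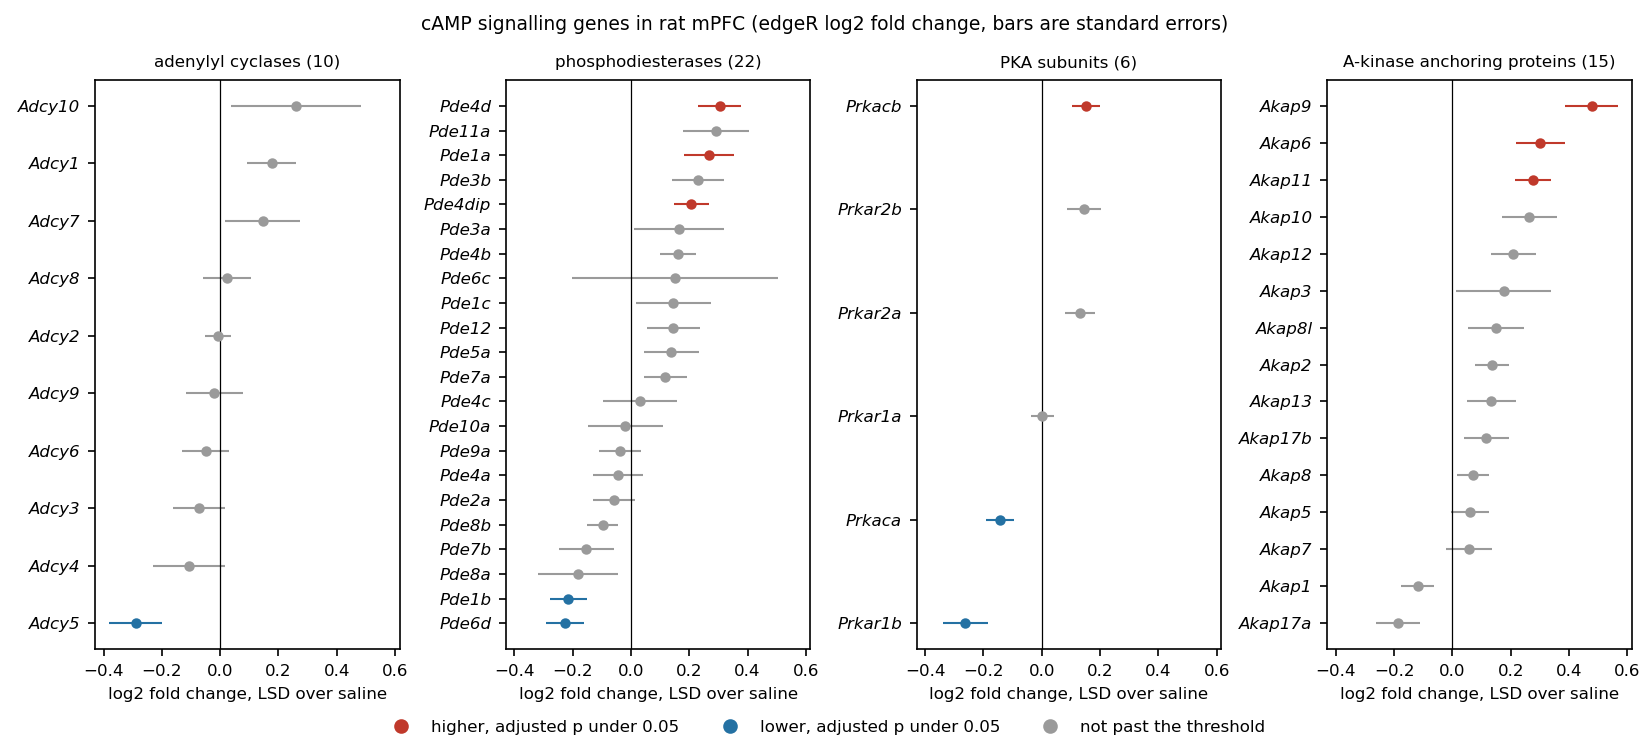
Each point is the edgeR log2 fold change (LSD over saline) of a gene on the horizontal axis, with its standard error as a bar, for the 53 genes in 4 family panels, and red and blue mark genes past the threshold. Values run from -0.29 for *Adcy5* to 0.48 for *Akap9*, and 13 of the 15 anchoring proteins lie right of zero.

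Many of these genes are long, and in these libraries the fold change differed with the genomic span of a gene, its start-to-end distance, taken here from the GRCr8 annotation. Among all genes with a span over 100000 bases the median log2 fold change was 0.10, and among shorter genes -0.02. The 25 cAMP genes over 100000 bases had a median of 0.14 and the 28 shorter ones 0.09. The test was therefore repeated with an offset that removes, rat by rat, the trend with gene span. With it, 2 cAMP genes were higher (3.77% of the 53, against 3.96% of all genes with a span) and 5 lower (9.43% against 7.10%), with a median of 0.04. Of the genes lower before, *Prkaca* missed the threshold, and the cAMP-specific *Pde8b* passed it (-0.21, adjusted p = 0.0229, against -0.10, adjusted p = 0.218, without the correction). Without the 4 rats with high striatal markers, 10 were higher (18.9% against 10.2% of all genes) and 3 lower (5.66% against 10.1%), with a median of 0.07. Of the 12 genes called in all rats, *Adcy5*, *Prkar1b*, *Akap9* and *Akap11* passed with the span correction, without the 4 rats, and with both.

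**Figure D2:**
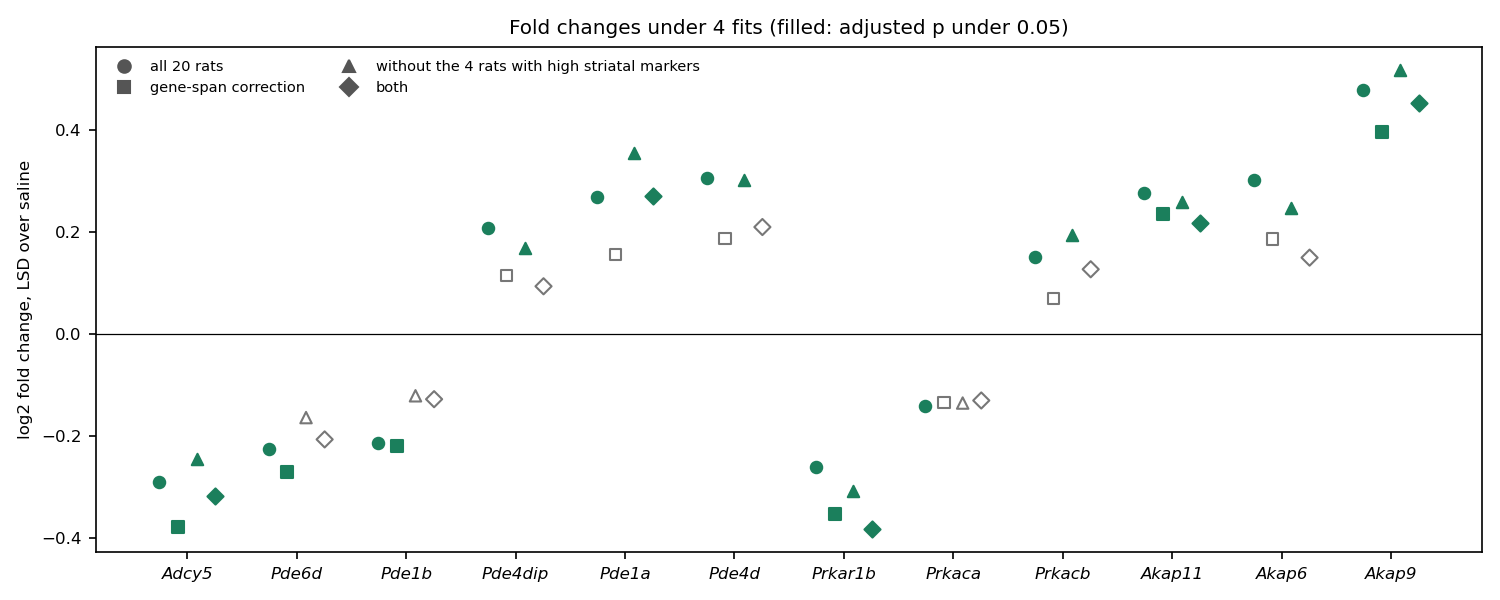
The log2 fold change (LSD over saline) of the 12 called genes is shown for all 20 rats, after the span correction, without the 4 rats with high striatal markers, and with both, and filled symbols passed the threshold. All 4 symbols are filled for *Adcy5*, *Prkar1b*, *Akap11* and *Akap9*, and no gene changes sign.

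Promoter sequences were available from RefSeq (GRCr8) for 41 of the 53 genes, as windows from 250 bases before to 50 bases after each annotated start. The windows of *Akap9* and *Akap11*, which rose in every version of the test named above, and of *Prkaca* and *Prkacb*, which moved in opposite directions, are shown 5′ to 3′ with capitals on each match to the CRE core TGACG on either strand, part of the element that CREB binds.
Akap9 promoter (chr4:31147289-31147588, minus strand): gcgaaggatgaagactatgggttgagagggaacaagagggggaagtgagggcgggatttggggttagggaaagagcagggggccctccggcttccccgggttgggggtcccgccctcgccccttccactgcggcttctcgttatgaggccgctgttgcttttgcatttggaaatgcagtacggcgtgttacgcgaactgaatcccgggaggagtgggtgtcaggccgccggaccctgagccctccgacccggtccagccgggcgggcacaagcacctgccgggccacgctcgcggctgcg
Akap11 promoter (chr15:60365286-60365585, minus strand): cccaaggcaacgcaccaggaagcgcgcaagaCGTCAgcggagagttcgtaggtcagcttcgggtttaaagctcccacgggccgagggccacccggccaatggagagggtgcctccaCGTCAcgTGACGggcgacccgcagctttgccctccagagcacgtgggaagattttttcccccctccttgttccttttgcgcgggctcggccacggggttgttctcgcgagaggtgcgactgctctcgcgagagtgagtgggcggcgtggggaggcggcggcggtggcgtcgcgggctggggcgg
Prkaca promoter (chr19:41083140-41083439, minus strand): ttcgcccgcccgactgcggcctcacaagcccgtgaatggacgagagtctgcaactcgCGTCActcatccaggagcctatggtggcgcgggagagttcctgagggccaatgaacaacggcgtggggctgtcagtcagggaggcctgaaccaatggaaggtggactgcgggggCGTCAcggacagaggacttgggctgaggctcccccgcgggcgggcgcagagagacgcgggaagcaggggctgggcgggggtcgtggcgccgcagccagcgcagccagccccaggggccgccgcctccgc
Prkacb promoter (chr2:238386266-238386565, minus strand): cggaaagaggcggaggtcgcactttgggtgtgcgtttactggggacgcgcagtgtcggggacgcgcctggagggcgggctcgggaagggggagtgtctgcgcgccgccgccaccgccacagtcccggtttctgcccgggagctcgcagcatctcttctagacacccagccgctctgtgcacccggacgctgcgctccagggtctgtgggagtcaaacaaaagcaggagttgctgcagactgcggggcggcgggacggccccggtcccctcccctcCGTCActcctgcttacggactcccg
The *Prkacb* window lies wholly inside its gene (chr2:238297140-238389317), so it is for a start other than the outermost. The core is found 3 times in the *Akap11* window, 2 times in that of *Prkaca*, 1 time in that of *Prkacb*, and not in that of *Akap9*. It is present in 15 of 56 windows of cAMP genes (26.8%) and in 21.2% of all 33469 windows, and the full element TGACGTCA, which contains it, in 1 of 56 (*Akap17a*) and 1.83% of all. The E-box CACGTG is in 5 of 56 (8.93%) and 6.42% of all, and 2 copies lie in the *Akap11* window. Among the 10 called genes with a window, *Akap11*, *Pde4d*, *Prkaca* and *Prkacb* hold the core, and these include genes that rose and a gene that fell. A match describes letters in the window and is not evidence of binding.

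Of the 10 cyclases, *Adcy5* alone passed the threshold, so 1 of 10 was lower, which is near the share over all genes (8.54%). The median log2 fold change of the cyclases was -0.01, and 4 were positive (6 with scaling by total counts). *Adcy5* encodes a membrane cyclase inhibited by Gi and calcium, and it is the main cyclase of the striatum. It had 258 to 341 normalised RPM with LSD (median 301) and 283 to 546 with saline (median 334). The groups overlap, with 9 of 10 LSD rats below the saline median and 3 below the lowest control. The edgeR estimate was -0.29 ± 0.092 in log2 units (SE, adjusted p = 0.0358). Saline rat 8, with the highest striatal sum, was also the highest for *Adcy5* at 546, and LSD rat 9 was the highest of its group at 341. Saline rats 2 and 9 had 332 and 329, and the part of these markers in the result was not tested. Without the 4 rats the fold change was -0.25 (adjusted p = 0.0302), and with the span correction -0.38 (adjusted p = 0.0149). Leaving out LSD rat 2, 3, 7, 8 or 10, or saline rat 1, 3 or 4, ended the call (adjusted p 0.0530 to 0.0732), as did scaling by total counts (0.0588).

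*Adcy1*, the calcium- and calmodulin-stimulated neuronal cyclase, had the most reads of the family, 12084 to 31944 per rat. Its level was 1268 ± 159 normalised RPM (SD, n = 10) with LSD and 1122 ± 162 (SD, n = 10) with saline. The log2 fold change of 0.18 missed the threshold (adjusted p = 0.149, edgeR), although it passed with scaling by total counts (0.22, adjusted p = 0.0398). It was 0.09 with the span correction (adjusted p = 0.472) and 0.12 without the 4 rats (adjusted p = 0.348). *Adcy10*, the soluble bicarbonate-sensitive cyclase, was close to the detection limit with 2 to 34 reads per rat and a log2 difference of 0.26 ± 0.22 (SE, adjusted p = 0.463). *Adcy2*, another neuronal cyclase, was nearly level at -0.01 ± 0.044 (SE, adjusted p = 0.929). Of the other 6, *Adcy3*, *Adcy4*, *Adcy6*, *Adcy7*, *Adcy8* and *Adcy9*, the fold changes lay between -0.11 and 0.15.

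The 22 phosphodiesterase symbols held 3 genes that rose (13.6%, against 6.48% of all genes) and 2 that fell (9.09%, against 8.54%). Their median log2 fold change was 0.13. By substrate, the 8 cAMP-specific enzymes (families 4, 7 and 8) had 1 higher, the 8 that take both nucleotides (families 1, 2, 3, 10 and 11) 1 higher and 1 lower, and of the 3 cGMP-specific ones (families 5, 6 and 9) edgeR called 0, as did DESeq2, and 0 had an unadjusted p under 0.05. Another 3 carry the symbol without being a classical cyclic nucleotide phosphodiesterase: *Pde4dip* (myomegalin, a scaffold at the Golgi and centrosome), *Pde6d* (a chaperone of prenylated proteins) and *Pde12* (a mitochondrial RNase).

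*Pde4d* encodes a cAMP-specific enzyme that is recruited to AKAP complexes, and among these genes it has the greatest span, 1514231 bases. It had 84.8 to 113 normalised RPM with LSD (median 99.4) and 63.7 to 93.7 with saline (median 79.6). All 10 LSD rats were above the saline median and 7 were above the highest control. The log2 difference, LSD minus saline, came to 0.30 ± 0.073 (SE, edgeR adjusted p = 0.0104), and it passed the threshold with any single rat left out. After the span correction it was 0.19 and missed the threshold (adjusted p = 0.0567). Its relative *Pde4b*, at 57.5 ± 3.41 (SD, n = 10) against 51.4 ± 6.53 (SD, n = 10), had 0.16 (adjusted p = 0.0830), or 0.21 without the 4 rats, which passed (adjusted p = 0.0178). With the span correction *Pde4b* had 0.04 (adjusted p = 0.700), and with both 0.12 (adjusted p = 0.124). *Pde4a* and *Pde4c*, the remaining members of the family, had -0.04 (adjusted p = 0.773) and 0.03 (adjusted p = 0.899).

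The calcium- and calmodulin-dependent enzymes of family 1 went both ways. *Pde1a* had 60.7 to 81.5 normalised RPM with LSD (median 67.5) and 42.1 to 77.5 with saline (median 56.3), so that all 10 LSD rats lay above the saline median but 1 above the saline maximum, held by saline rat 2. On the log2 scale the change was 0.27 ± 0.087 (SE, edgeR adjusted p = 0.0399). It was larger without the 4 rats, 0.35 (adjusted p = 0.00969), and smaller after the span correction, 0.16 (adjusted p = 0.219). With both it was 0.27 and passed (adjusted p = 0.0251). The call ended when any of 11 rats was left out, namely LSD rats 3, 4, 5, 7, 8 and 10 and saline rats 1, 3, 4, 5 and 9 (adjusted p 0.0516 to 0.0768).

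*Pde1b*, abundant in striatum, had 198 to 233 normalised RPM with LSD (median 213) and 215 to 307 with saline (median 237). All 10 LSD rats were below the saline median and 5 were below the saline minimum. The edgeR estimate was -0.22 ± 0.064 in log2 units (SE, adjusted p = 0.0271). The highest levels were in the rats with high striatal markers, 307 in saline rat 9, 302 in saline rat 8 and 262 in saline rat 2, and LSD rat 9 had the highest of its group, 233. Without these 4 rats the fold change was -0.12 and missed the threshold (adjusted p = 0.0744), as it did without LSD rat 8 (adjusted p = 0.0530) and with scaling by total counts (adjusted p = 0.0806). *Pde1c*, the third gene of family 1, had 0.15 (adjusted p = 0.479).

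*Pde10a*, another striatal enzyme, was not called. Its level was 47.5 ± 7.42 normalised RPM (SD, n = 10) with LSD and 48.0 ± 13.5 (SD, n = 10) with saline, with a log2 fold change of -0.02 ± 0.13 (SE, edgeR adjusted p = 0.940). Its 3 highest values were in rats with high striatal markers, 78.0 in saline rat 8, 59.2 in LSD rat 9 and 58.5 in saline rat 2, while saline rat 9, the last of those 4 rats, had 37.8. *Pde2a*, a cGMP-stimulated enzyme, had the most reads of the family, at 679 ± 76.4 against 707 ± 80.7 normalised RPM (SD, n = 10 each) and a fold change of -0.06 (adjusted p = 0.630). *Pde11a* and *Pde3b*, which hydrolyse both nucleotides, came nearest to the threshold without passing it. *Pde11a* was 4.31 ± 0.553 against 3.51 ± 0.693 (SD, n = 10 each), a log2 difference of 0.29 (adjusted p = 0.0776), and *Pde3b* 11.7 ± 1.26 against 9.90 ± 1.66 (SD, n = 10 each), 0.23 (adjusted p = 0.0800). With the span correction they had 0.19 (adjusted p = 0.216) and 0.14 (adjusted p = 0.275).

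**Figure D3:**
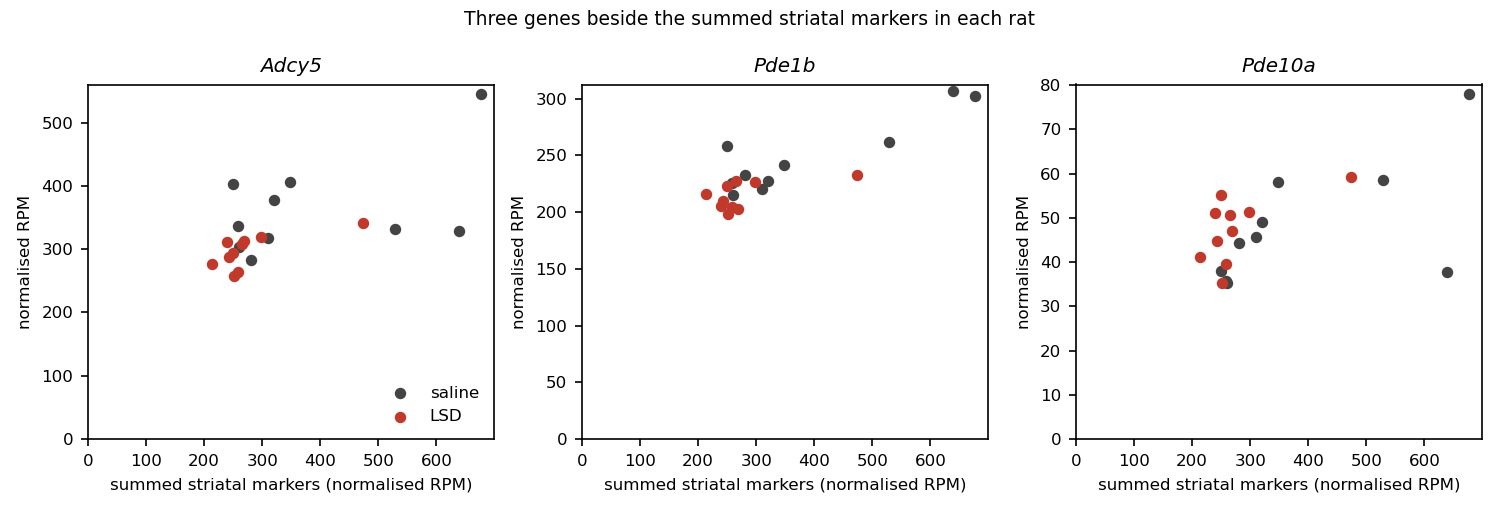
Each point is a rat, with the summed level of 10 striatal markers on the horizontal axis and the level of *Adcy5*, *Pde1b* or *Pde10a* on the vertical axis, both in normalised RPM. The 4 rats at 474 and above include the 3 highest values of *Pde1b* (262 to 307) and of *Pde10a* (58.5 to 78.0), and for *Adcy5* the highest rat of each group (546 with saline and 341 with LSD).

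Of the genes that match by symbol only, *Pde4dip* rose and *Pde6d* fell. *Pde4dip* had 229 to 296 normalised RPM with LSD (median 262) and 171 to 255 with saline (median 234), and 7 LSD rats were above the highest control. The log2 difference, LSD minus saline, came to 0.21 ± 0.061 (SE, edgeR adjusted p = 0.0266), or 0.11 with the span correction (adjusted p = 0.125), and it missed the threshold narrowly without LSD rat 3 (adjusted p = 0.0508). *Pde6d* had 20.5 to 27.5 normalised RPM with LSD (median 24.3) and 22.1 to 33.8 with saline (median 28.2), and all 10 LSD rats were below the saline median. On the log2 scale the change was -0.23 ± 0.066 (SE, edgeR adjusted p = 0.0252), or -0.27 with the span correction (adjusted p = 0.0181) and -0.16 without the 4 rats, which missed the threshold (adjusted p = 0.0951), as it did with scaling by total counts (adjusted p = 0.0902).

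Among the 6 PKA subunits, 1 rose (16.7%, against 6.48% of all genes) and 2 fell (33.3%, against 8.54%). Both catalytic genes changed, in opposite directions. *Prkacb* had 274 to 325 normalised RPM with LSD (median 290) and 240 to 303 with saline (median 264), with all 10 LSD rats above the saline median. The edgeR estimate was 0.15 ± 0.048 in log2 units (SE, adjusted p = 0.0360), and 0.19 without the 4 rats (adjusted p = 0.0126), but 0.07 after the span correction (adjusted p = 0.356). *Prkaca* had 161 to 199 normalised RPM with LSD (median 170) and 170 to 204 with saline (median 196), with 9 LSD rats below the saline median and 4 below the saline minimum. The log2 difference, LSD minus saline, came to -0.14 ± 0.048 (SE), and its edgeR adjusted p of 0.0466 was the closest to the threshold among the genes called. It missed the threshold after the span correction (-0.14, adjusted p = 0.0630), without the 4 rats (-0.14, adjusted p = 0.0660) and with scaling by total counts (-0.10, adjusted p = 0.0928). It also missed it when a single rat was left out, except for LSD rat 1 and saline rats 2 and 10 (adjusted p 0.0504 to 0.0901 for the other 17). For *Prkacb* this held for 8 rats, LSD rats 3, 4, 5 and 8 and saline rats 1, 3, 4 and 5 (adjusted p 0.0513 to 0.0652).

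Within a rat, the ratio of *Prkacb* to *Prkaca* reads needs no scaling for library size. It is not corrected for the trend with gene span, and the spans are 92178 bases for *Prkacb* and 23347 for *Prkaca*. This pair was chosen after its values were seen, so the ratio is given as a description. It was 1.43 to 1.91 with LSD (median 1.70) and 1.19 to 1.77 with saline (median 1.34). All 10 LSD rats lay above the saline median and 4 above the highest, saline rat 2. Without the 4 rats with high striatal markers the controls reached 1.55.

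*Prkar1b*, the brain-enriched type I regulatory subunit, fell. It had 729 to 978 normalised RPM with LSD (median 794) and 732 to 1213 with saline (median 996). All 10 LSD rats were below the saline median, but 1 was below the lowest control, saline rat 2. On the log2 scale the change was -0.26 ± 0.078 (SE, edgeR adjusted p = 0.0274), -0.35 after the span correction (adjusted p = 0.0149) and -0.31 without the 4 rats (adjusted p = 0.0131). Leaving out LSD rat 7, 8, 9 or 10, or saline rat 1, 3, 4 or 5, moved the adjusted p to between 0.0505 and 0.0598. *Prkar1a*, its ubiquitous counterpart, was the most even gene of the family, at 579 ± 25.5 against 578 ± 21.9 normalised RPM (SD, n = 10 each), a log2 fold change of 0.00 ± 0.039 (SE, edgeR adjusted p = 0.979). The ratio of *Prkar1a* to *Prkar1b* reads, also chosen after the values were seen, was 0.599 to 0.833 with LSD (median 0.703) and 0.464 to 0.824 with saline (median 0.580), and all 10 LSD rats were above the saline median. Here too the ratio is not corrected for gene span, 18492 bases for *Prkar1a* and 132701 for *Prkar1b*.

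The type II regulatory subunits, which bind most AKAPs, both had positive fold changes that missed the threshold. *Prkar2a* had 71.8 ± 4.69 normalised RPM with LSD against 65.5 ± 5.36 (SD, n = 10 each), a log2 fold change of 0.13 (adjusted p = 0.0786, edgeR). *Prkar2b* had 76.8 ± 4.57 against 69.4 ± 7.96 (SD, n = 10 each), 0.14 (adjusted p = 0.0923). For each, all 10 LSD rats lay above the saline median, and saline rat 2 was the highest control. Without that rat both passed (adjusted p = 0.0182 and 0.00817), and without all 4 rats *Prkar2b* had 0.22 (adjusted p = 0.00771) and *Prkar2a* 0.14 (adjusted p = 0.0578). With the span correction in all rats both were smaller, 0.07 for *Prkar2a* (adjusted p = 0.360) and 0.06 for *Prkar2b* (adjusted p = 0.554). With the span correction and without the 4 rats, *Prkar2b* passed (0.15, adjusted p = 0.0331) and *Prkar2a* did not (0.08, adjusted p = 0.271).

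**Figure D4:**
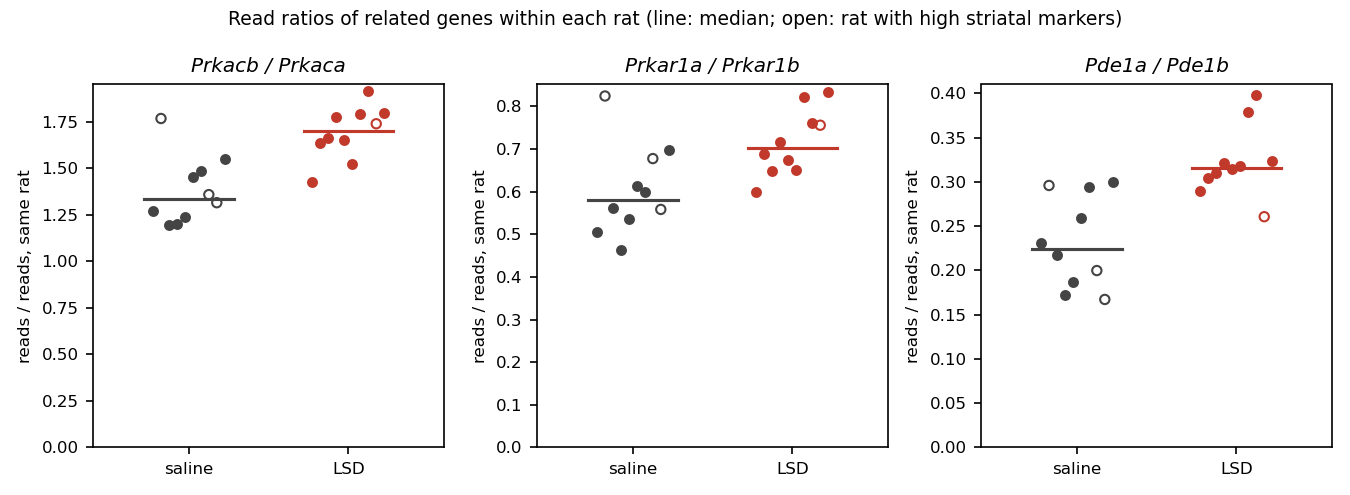
Points are rats and lines group medians, and the vertical axis is the ratio of reads of the named genes within the same rat, with open symbols for the 4 rats with high striatal markers. In each panel all 10 LSD rats lie above the saline median, which is 1.34 for *Prkacb* to *Prkaca*, 0.580 for *Prkar1a* to *Prkar1b* and 0.224 for *Pde1a* to *Pde1b*. The ratios are not corrected for gene span.

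The ratio of *Pde1a* to *Pde1b* reads, likewise chosen after the values were seen, was 0.261 to 0.398 with LSD (median 0.316) and 0.167 to 0.300 with saline (median 0.224). In 8 LSD rats it was above the highest control. This ratio is likewise not corrected for gene span, 280237 bases for *Pde1a* and 27201 for *Pde1b*.

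The anchoring proteins had the most uniform direction, with 13 of 15 positive, a median log2 fold change of 0.14, 3 genes higher (of all genes 6.48% were) and 0 lower by edgeR and DESeq2, of 8 with an unadjusted p under 0.05. Of all genes, 8368 of 16605 were positive. With the span correction 2 anchoring proteins were higher (13.3%, against 3.96%). Without the 4 rats 4 were higher (26.7%, against 10.2% of all genes) and 1 lower (6.67%, against 10.1%). *Akap9* (yotiao, or AKAP450), which tethers PKA at the Golgi, the centrosome and ion channels, had the largest change of the 53. Its levels were 58.8 to 83.5 normalised RPM with LSD (median 74.0) and 37.8 to 67.7 with saline (median 51.9). All 10 LSD rats were above the saline median and 7 above the highest control. The edgeR estimate was 0.48 ± 0.091 in log2 units (SE, adjusted p = 0.00449), 0.40 after the span correction (adjusted p = 0.00869) and 0.52 without the 4 rats (adjusted p = 0.00435). With any single rat left out it stayed between 0.44 and 0.53, with adjusted p-values up to 0.0123.

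*Akap11* (AKAP220), an anchor that also binds the kinase GSK3 and protein phosphatase 1, had 285 to 353 normalised RPM with LSD (median 321) and 202 to 304 with saline (median 265). All 10 LSD rats were above the saline median and 8 above the highest. The log2 difference, LSD minus saline, came to 0.28 ± 0.062 (SE, edgeR adjusted p = 0.00852), 0.23 after the span correction (adjusted p = 0.0135) and 0.26 without the 4 rats (adjusted p = 0.00688). Its span is 44642 bases, the shortest among the genes that rose.

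*Akap6* (mAKAP), which holds PKA and a PDE4D isoform at the nuclear envelope, had 204 to 295 normalised RPM with LSD (median 255) and 131 to 238 with saline (median 217). In 8 LSD rats it was above the highest control, while saline rat 9, with 131, lay far below the next lowest control. On the log2 scale the change was 0.30 ± 0.083 (SE, edgeR adjusted p = 0.0194), and 0.25 without the 4 rats, which include saline rat 9 (adjusted p = 0.0138). The gene spans 440318 bases, and after the span correction the fold change was 0.19 and just missed the threshold (adjusted p = 0.0547).

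**Figure D5:**
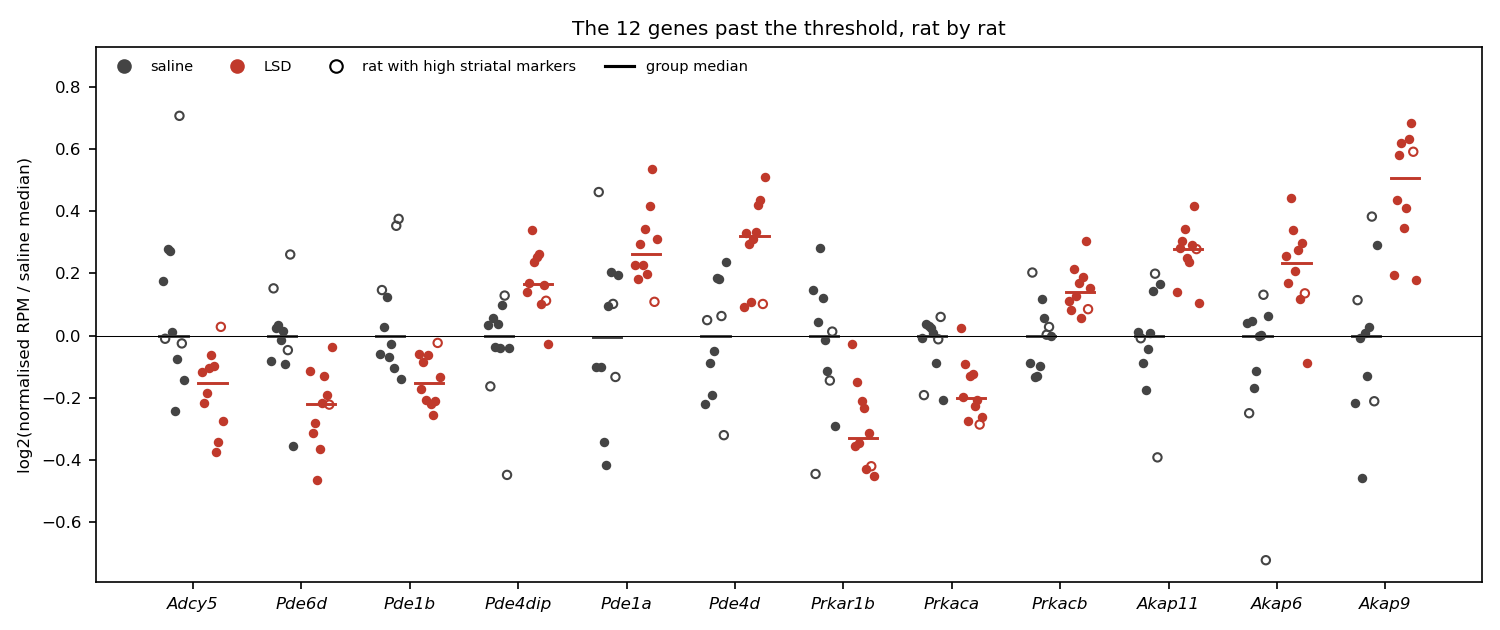
Each point is a rat for the 12 called genes, with the level on a log2 scale relative to the saline median on the vertical axis, lines for group medians, and open symbols for the 4 rats with high striatal markers. The LSD median lies highest for *Akap9* (74.0 against 51.9 normalised RPM), and for every gene the groups overlap.

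*Akap10*, the mitochondrial D-AKAP2, had 18.1 ± 1.59 normalised RPM with LSD and 15.0 ± 2.84 with saline (SD, n = 10 each), a log2 fold change of 0.26 (adjusted p = 0.0586, edgeR). It passed by DESeq2 (adjusted p = 0.0421), and in edgeR with the replicate number as a block (0.0385) or total counts (0.0446). It also passed without the 4 rats (0.28, adjusted p = 0.0267) and when saline rat 2, 8 or 10 was left out, but not with the span correction (0.21, adjusted p = 0.106). *Akap12* (gravin), a scaffold for the beta-adrenergic receptor, had 42.9 ± 4.23 against 37.1 ± 5.40 (SD, n = 10 each), 0.21 (adjusted p = 0.0677), or 0.13 with the span correction (adjusted p = 0.197). *Akap5* (AKAP150), the anchor of PKA and calcineurin at excitatory synapses, had 0.06 ± 0.065 (SE, adjusted p = 0.567). The 2 negative genes were *Akap1*, the outer mitochondrial membrane anchor (-0.12, adjusted p = 0.153), and *Akap17a*, a splicing-associated protein (-0.19, adjusted p = 0.0918). For *Akap1* all 10 LSD rats were below the saline median. It had -0.15 with the span correction (adjusted p = 0.101) and -0.16 without the 4 rats (adjusted p = 0.0596). With both, *Akap1* passed the threshold (-0.18, adjusted p = 0.0384). *Akap17a* passed the threshold without the 4 rats (-0.26, adjusted p = 0.0276), but had -0.10 with the span correction (adjusted p = 0.369) and -0.17 with both (adjusted p = 0.0989). The remaining 7 had log2 fold changes from 0.06 to 0.18. *Akap2* was counted under its own symbol. Its span of 466751 bases and its promoter windows are those of a GRCr8 locus named *Pakap*, which fuses it with a neighbouring gene. The span correction used that span, and with it *Akap2* went from 0.14 (adjusted p = 0.117) to 0.02 (adjusted p = 0.823). Since the annotation used for counting is not given, its reads may not belong to it alone.

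Of 60 other measured genes of cyclic nucleotide signalling, in 8 lists, 8 rose (13.3%, against 6.48% of all genes) and 5 fell (8.33%, against 8.54%), with a median log2 fold change of 0.03. With the span correction 3 rose and 8 fell, where 3.96% and 7.10% of all genes did. Among the 7 G alpha subunits, 1 rose (14.3%, against 6.48% of all genes) and 3 fell (42.9%, against 8.54%). *Gnas*, which encodes the Gs subunit that activates cyclases, had 868 ± 45.9 normalised RPM with LSD and 1003 ± 81.5 with saline (SD, n = 10 each), a log2 fold change of -0.21 (edgeR adjusted p = 0.0111). Its level in 8 LSD rats was below the lowest control. *Gnai2*, an inhibitory subunit, had 422 ± 27.1 against 499 ± 43.4 (SD, n = 10 each), -0.24 (adjusted p = 0.00755), and passed with any rat left out. *Gnal*, the Golf subunit of striatal neurons, had -0.45 (adjusted p = 0.0286) but -0.26 without the 4 rats (adjusted p = 0.138). *Gnai1*, another inhibitory subunit, had 0.19 (adjusted p = 0.0335), or 0.11 with the span correction (adjusted p = 0.149). With single rats left out, *Gnal* missed the threshold in 4 of 20 cases and *Gnai1* in 10.

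Upstream of the cyclases, *Adcyap1*, the gene of the peptide PACAP, which signals through Gs, had 19.8 ± 2.57 normalised RPM against 16.4 ± 1.98 (SD, n = 10 each), a log2 fold change of 0.27 (adjusted p = 0.0255, edgeR). *Vip*, its relative in interneurons, had 0.27 (adjusted p = 0.0486), and the 3 receptors of both peptides were not called. Of the 3 PKA inhibitor peptides, *Pkig* fell, from 116 ± 19.6 to 96.5 ± 6.95 (SD, n = 10 each), -0.27 (adjusted p = 0.0218). Of 10 anchoring proteins with other symbols, *Map2*, a dendritic microtubule protein, rose by 0.29 (adjusted p = 0.0178) and *Sphkap*, a type I PKA anchor, by 0.28 (adjusted p = 0.0117). With the span correction *Sphkap* still passed (0.19, adjusted p = 0.0326) and *Map2* did not (0.18, adjusted p = 0.0671). Of the 10 CREB family and coactivator genes, *Creb1* alone was called, at 9.65 ± 1.30 against 7.87 ± 1.15 (SD, n = 10 each), 0.29 (adjusted p = 0.0408), or 0.23 with the span correction (adjusted p = 0.0892). Of the 10 genes of the cGMP arm, the guanylyl cyclase subunits *Gucy1a2* (0.50, adjusted p = 0.0499) and *Gucy1b3* (0.16, adjusted p = 0.0329) rose and the natriuretic peptide receptor *Npr1* fell (-0.33, adjusted p = 0.0162). Both cyclase subunits missed the threshold with the span correction, and *Gucy1a2* also without the 4 rats (adjusted p = 0.0885). By edgeR, 0 of 11 other cAMP effectors (*Rapgef*, Popeye-domain, *Hcn* and *Cng* genes) and 0 of 4 inhibitors of phosphatase 1, which include *Ppp1r1b* (DARPP-32, -0.45, adjusted p = 0.113), were called (3 and 1 with an unadjusted p under 0.05, and 1 and 0 by DESeq2). The summed level of these 4 inhibitors was at least 394 normalised RPM in the 4 rats with high striatal markers and at most 297 in the others. *Ppp1r1b* is also 1 of the 10 striatal markers by which those rats were picked, so this separation is in part built in. With single rats left out, *Vip* and *Gucy1a2* each missed the threshold in 14 of 20 cases, *Creb1* in 12, *Gucy1b3* in 7 and *Adcyap1* in 2.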

How the data were processed

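RNA from the mPFC of 20 rats was sequenced, and the deposited values are raw read counts per gene symbol. The authors used TrimGalore for trimming, Hisat2 for alignment against the rn6 build and HTSeq-count for the counts, and the versions, annotation and strand setting are not given in the sources used here, so reads of overlapping or antisense genes cannot be told apart. The table lists 31038 genes and 5 unnamed rows, which hold 25.5% to 29.0% of each library's counts and were left out. No 2 libraries were identical. Groups were read from the sample titles.

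Genes covered by 5 or more reads in 10 or more rats were tested with edgeR 4.0.16 in R 4.3.3 (TMM, quasi-likelihood F test, Benjamini-Hochberg adjustment over all genes kept, threshold 0.05), after a test on simulated data. The filter follows the study's. Standard errors are the size of the log2 fold change over the square root of its F statistic. Alternatives were DESeq2 1.42.0, the study's own tool, median-ratio factors, total counts, other filters, the replicate number as a block, reads drawn down to 11098076 per rat, each rat left out, an offset for gene span, and, added after the data were seen, leaving out 4 rats with high striatal markers. The offset is each rat's mean deviation in log2(RPM + 1) over 50 bins of genes ordered by GRCr8 span, smoothed over 5 bins and centred, for the 90.0% of kept genes with a span. Named are all genes called and, in each family, the 2 next smallest p-values and the 2 with most reads. Further genes (among them *Adcy2*, *Pde4a*, *Pde4b*, *Pde4c*, *Pde1c*, *Pde8b*, *Pde10a*, *Akap1*, *Akap2*, *Akap5*, *Akap17a* and *Ppp1r1b*) were named after their values were seen. The members and all lists were chosen with earlier results of these data known. Levels are not compared between genes, since transcript lengths were not used. Genes with few reads, such as *Adcy10*, have the widest errors, and SDs are over rats.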

Additional observations from a re-analysis of the deposited data

Results flagged for a closer look

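In 44 groups of 10 rats, formed by the 22 genes named under the rule in each treatment group, the gap between the highest or lowest rat and its neighbour, as a share of the group's range, exceeded the limit of Dixon's test 4 times, where chance gives about 1 in 20 groups. *Adcy5* was high in saline rat 8 (546 normalised RPM against 406 in the next rat, a share of 0.533). *Akap6* was low in saline rat 9 (131 against 182, a share of 0.480). *Prkar2b* was high in saline rat 2 (88.0 against 75.5, a share of 0.469). These 3 rats are among the 4 with high striatal markers, and the part of that in the values was not tested. *Akap10* was high in LSD rat 10 (22.3 against 18.4, a share of 0.721).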

How the results depend on the processing

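In all 20 rats 7 cAMP genes were higher and 5 lower. DESeq2, median-ratio factors, the stricter filter and drawn-down reads kept both counts within 1.5 times, as did the replicate block (9 and 4). Rats with the same number correlated over 0.1 in 6 of 10 pairs and 1 of 10 LSD rats correlated best with its own number, so the number was not taken as a pairing. Higher genes were 11 with total counts, 2 with the span correction, and 4 with it plus the replicate block or without the 4 rats. Lower genes were 0 without a filter (the 5 had adjusted p from 0.0571 to 0.139 and all an unadjusted p under 0.05, with more genes tested), 1 with total counts, and 3 without the 4 rats, with or without the span correction. By family, higher cyclases went from 0 to 1 with the block or total counts, and lower ones from 1 to 0 without a filter or with total counts and to 2 with span and block. Higher phosphodiesterases went from 3 to 0 with span, and to 1 with span and block or span without the 4 rats, and lower ones from 2 to 1 with the block and to 0 without a filter, with total counts, or without the 4 rats. Higher PKA subunits went from 1 to 0 with the block or span and to 2 without the 4 rats. Lower ones went from 2 to 1 under all alternatives except DESeq2, the block (2 each) and no filter (0). Higher AKAPs went from 3 to 5 with the block or total counts, and lower ones from 0 to 1 without the 4 rats. Other pathway genes went from 8 higher to 5 without a filter, 3 with span, 5 with span and block and 4 with span without the 4 rats, and from 5 lower to 8 with span, 10 with the block, 11 with both, 8 without the 4 rats and 12 without them with span. The median log2 fold change of 0.12 moved to 0.07 without the 4 rats, 0.04 with span and 0.023 with both. The causes of these shifts were not tested.

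With each rat left out, higher genes were 4 to 13 and lower genes 1 to 6. By family, higher and lower counts were 0 to 0 and 0 to 1 for cyclases, 1 to 5 and 1 to 2 for phosphodiesterases, 0 to 3 and 0 to 2 for PKA, and 3 to 5 and 0 to 1 for AKAPs. Other pathway genes were 2 to 9 higher and 4 to 9 lower, and the median 0.09 to 0.14. The lowest count of higher genes came without LSD rat 3 and the highest without saline rat 2, and lower genes were 1 without LSD rat 8, 2 without LSD rat 7 or 10 or saline rat 1, 3 or 4, and 3 without LSD rat 2, 3 or 9 or saline rat 5. *Prkar1a*, at 0.00, turned sign with drawn-down reads (-5.4e-05) and with some rats left out (-0.0051 to 0.017 over all 20). *Akap6*, *Akap9*, *Akap11*, *Pde4d* and *Pde6d* passed with any rat left out.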
